A study of Mus musculus with 8 samples.

Results

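The 9 genes described here serve glucose entry, glucose phosphorylation and the insulin response: Slc2a1 and Slc2a4 (the glucose transporters GLUT1 and GLUT4), Hk1 and Hk2 (hexokinases), Pfkfb1 and Pfkfb2 (bifunctional enzymes of fructose 2,6-bisphosphate), Insr (the insulin receptor), Irs1 (insulin receptor substrate 1) and Grb14 (an adaptor that binds and inhibits the insulin receptor). They were chosen by symbol, and all 9 were found among the 32285 genes of each count matrix. RNA was counted in single nuclei of adult mouse heart (10x Genomics droplets), and the groups are non-transgenic wild type (nTg) and mice that express cyclin A2, encoded by Ccna2, constitutively (Tg), of each sex. Of 8 deposited matrices, 5 had as many columns as their own barcode list and could be used: from females 1 labelled nTg (nTg Female 1) and 2 labelled Tg (Tg Female 1, Tg Female 2), and from males 2 labelled Tg (Tg male 1, Tg male 2). Per-library values below keep that order unless libraries are named. The promoter that drives the transgene, the age beyond "adult" and the number of hearts per library are not given in the sources used here, so the p-values measure only the spread between libraries, which may be technical.

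In muscle and fat, insulin bound to its receptor leads to phosphorylation of the Irs adaptors and, through phosphoinositide 3-kinase and Akt, to movement of vesicles with GLUT4 to the cell surface, while GLUT1 carries basal uptake in many cell types. Hexokinase then traps glucose in the cell as glucose 6-phosphate. The heart is known for GLUT4, for hexokinase 2 and for the cardiac isoform of the bifunctional enzyme, encoded by Pfkfb2, which sets the level of an activator of phosphofructokinase. The isoform encoded by Pfkfb1 is best known from liver and skeletal muscle.

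The 5 libraries held 25045167 to 38593706 UMIs (unique molecular identifiers, counted RNA molecules), and 5773 to 8817 nuclei each were kept. Any pair of libraries shared 6 to 20 cell barcodes. Nuclei were clustered with the 9 genes and their pathway lists left out, and 8 marker-defined classes had at least 50 nuclei in every library: cardiomyocyte-like (6068 nuclei), fibroblast-like (12614), endothelial-like (7050), macrophage-like (2514), pericyte-like (2177), endocardial-like (1338), lymphatic endothelial-like (761) and smooth muscle-like (517), named below without the suffix. All 8 listed cardiomyocyte markers had their highest mean level in the cardiomyocyte class. For endothelial nuclei 4 of 8 markers did (Pecam1, Kdr, Emcn and Vwf had a higher mean in another class), and for endocardial nuclei 5 of 6 (not Nfatc1). Ccna2 went against 2 labels: in cardiomyocytes it stood at 449 CPM (UMIs of the gene scaled by the UMI total of the class in that library) in the library labelled nTg Female 1 and at 0.469 CPM (6 UMIs) in the library labelled Tg Female 1, against 852, 239 and 145 CPM in Tg Female 2, Tg male 1 and Tg male 2. No direction is therefore assigned to the transgene below, and the sex comparison is also given without Tg Female 1.

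Promoter sequence is shown for Hk2 and Irs1, whose levels divided the cell types in contrasting ways (values below) and which have a single start in the RefSeq table (GRCm38.p6). Each run holds the 250 bases before the start, 5′ to 3′ on the gene's own strand, with capitals marking exact matches on either strand to the GC box GGGCGG or the E-box CACGTG.

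Hk2, chr6:82774455-82774704, minus strand: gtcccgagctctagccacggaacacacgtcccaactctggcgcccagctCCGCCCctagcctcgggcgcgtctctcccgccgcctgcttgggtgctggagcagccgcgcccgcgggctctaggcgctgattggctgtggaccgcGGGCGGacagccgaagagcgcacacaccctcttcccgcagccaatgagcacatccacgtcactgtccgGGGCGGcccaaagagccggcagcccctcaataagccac

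Irs1, chr1:82291440-82291689, minus strand: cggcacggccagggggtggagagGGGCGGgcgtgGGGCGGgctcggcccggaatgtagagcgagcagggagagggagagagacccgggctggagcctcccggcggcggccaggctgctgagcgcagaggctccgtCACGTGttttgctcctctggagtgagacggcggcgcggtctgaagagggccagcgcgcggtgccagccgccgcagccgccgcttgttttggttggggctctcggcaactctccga

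Hk2 had 3 GC boxes, at 201, 106 and 38 bases before the start, and no E-box. Irs1 had 2 GC boxes, at 227 and 216 bases, and 1 E-box at 115 bases. The matches did not overlap each other. Of 32851 promoter windows of the same length, 32.7% held at least 1 GC box, 8.47% held 3 or more and 6.02% held an E-box. Both windows were rich in CpG, with 25 in Hk2 and 28 in Irs1 against a median of 6 over all windows. AAGGTCA was also searched on both strands (4.08% of all windows hold it), and it is not in these 2 windows. These are letter matches only, and nothing on factor binding was measured.

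In GENCODE M21, on the same build (GRCm38, the submitters' mm10), the genes lie as follows: Hk2 at chr6:82725025-82774454 (minus strand), Irs1 at chr1:82233101-82291416 (minus), Pfkfb2 at chr1:130689182-130729253 (minus), Grb14 at chr2:64912476-65024987 (minus), Slc2a1 at chr4:119108711-119137983 (plus), Insr at chr8:3122061-3279617 (minus), Hk1 at chr10:62268855-62379908 (minus), Slc2a4 at chr11:69942539-69948188 (minus) and Pfkfb1 at chrX:150588229-150643878 (plus). For 7 of the 9, every one but Slc2a4 and Grb14, a gene on the opposite strand that is also in the count table overlaps part of the locus, and whether the counting used strand is not given in the sources used here. The loci span from 5.65 kb (Slc2a4) to 158 kb (Insr). UMIs in nuclei can come from introns, so levels are compared for 1 gene between classes, states or libraries, never between genes.

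Cardiomyocytes held the highest level of 6 of the 9 genes, and for these 6 every cardiomyocyte library lay above every library of the other 7 classes: Slc2a4, Hk2, Pfkfb1, Pfkfb2, Insr and Grb14. Irs1 had its highest mean in smooth muscle, which overlapped fibroblasts, and for Hk1 and Slc2a1 the ranges of the leading classes overlapped. Of all 13856 genes that reached a mean of 10 CPM in some class, 14.9% had their highest mean in cardiomyocytes and 8.13% had cardiomyocyte libraries that did not overlap any other class. The classes are clusters of the same nuclei, so these orders are descriptions and carry no test. Scaling matters to them: TMM factors computed over all class sums raised cardiomyocyte levels by 0.55 on the log2 scale relative to library totals and moved the other 7 classes by -0.22 to 0.05. With them 8 of the 9 genes were highest in cardiomyocytes, all but Irs1.

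**Figure D1:**
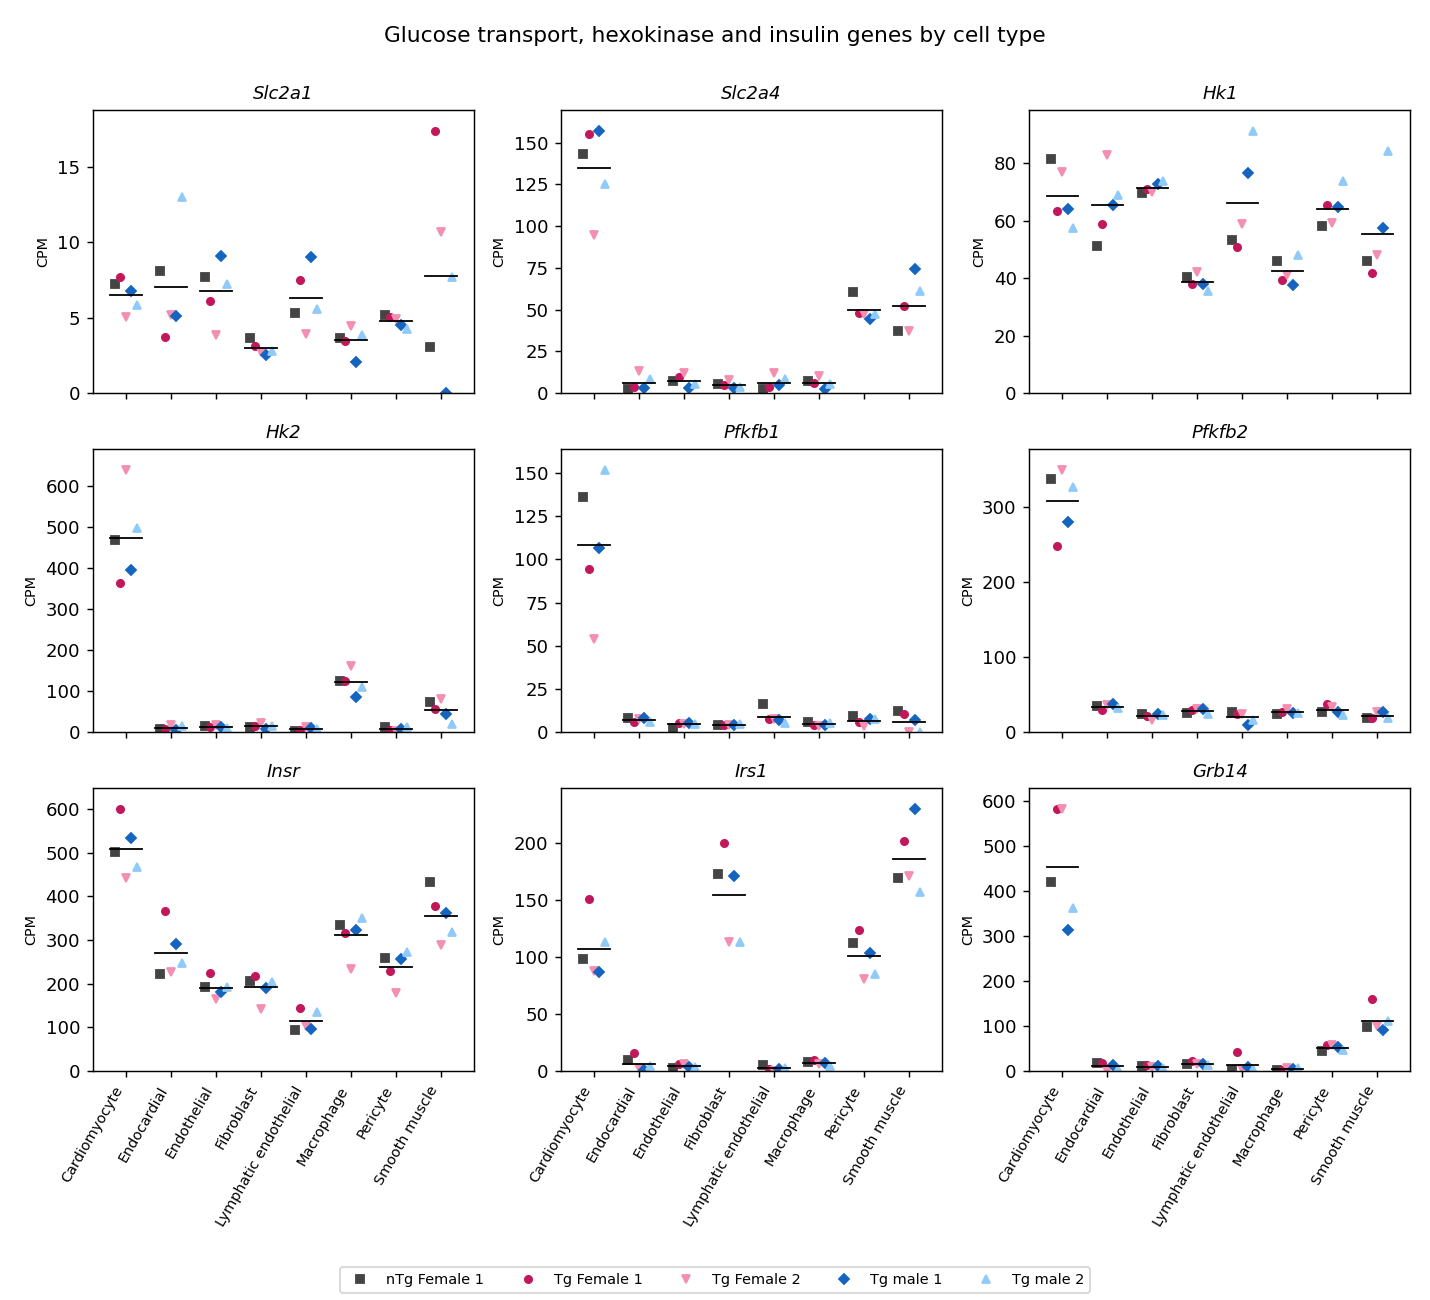
Level of each of the 9 genes (y axis, CPM from 0) in 8 cell classes (x axis), 1 point per library and a bar at the mean of the 5 libraries. Hk2, Pfkfb1, Pfkfb2, Slc2a4 and Grb14 stand high in cardiomyocytes, Hk1 is spread over all classes, and Irs1 is low in endothelial, endocardial, lymphatic and macrophage nuclei.

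Of the transporters, Slc2a4 stood at 143 CPM in cardiomyocytes of nTg Female 1, 155 in Tg Female 1, 94.8 in Tg Female 2, 157 in Tg male 1 and 125 in Tg male 2. The mean was 135 ± 25.9 CPM (SD, n = 5 libraries). Smooth muscle (52.4 CPM, range 36.9 to 74.4) and pericytes (49.5 CPM, range 44.4 to 60.3) came next and overlapped each other, so the mural cells of the vessels held Slc2a4 RNA at 25.7% to 50.2% of the cardiomyocyte level of their own library. The 8 cardiomyocyte markers ranged from 0.254% to 51.8% in pericytes and from 0.659% to 51.7% in smooth muscle. The part of RNA released from other cells in the mural values was not tested. The other 5 classes lay between 2.67 and 12.9 CPM, below both mural classes in every library. In those 5 classes Slc2a4 was at 1.72% to 13.6% of the cardiomyocyte level, inside the range of the 8 cardiomyocyte markers there (0.165% for Ryr2 to 57.7% for Actc1), and RNA released from other cells was not told apart from low expression.

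Slc2a1 was scarce in every class. It gave 5.06 to 7.66 CPM in cardiomyocytes (mean 6.52 ± 1.057, SD, n = 5), 3.82 to 9.10 in endothelial, 3.73 to 12.96 in endocardial and 0 to 17.4 in smooth muscle nuclei. Ranges of the 4 highest classes overlapped, and even pooled over libraries the cardiomyocytes gave 331 UMIs. Its level in fibroblasts, 2.51 to 3.66 CPM, was below that in cardiomyocytes in all 5 libraries. Tg male 1 gave 0 UMIs in smooth muscle, where the exact 95% Poisson interval reaches 12.5 CPM.

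Of the hexokinases, Hk2, the form most typical of insulin-responsive muscle, stood at 469, 364, 640.0, 396 and 498 CPM in cardiomyocytes of the 5 libraries. The highest library, Tg Female 2, and the lowest, Tg Female 1, carry the same label. Macrophages came second for Hk2, at 124, 125, 162, 85.7 and 109.9 CPM in the same order. Every macrophage library lay above every smooth muscle library (19.2 to 80.0 CPM), and the remaining 5 classes ranged from 2.67 to 21.02 CPM. The macrophage level was 21.7% to 34.5% of the cardiomyocyte level of its library, while the 8 cardiomyocyte markers in macrophages reached at most 9.41% for 6 of them (Ttn, Myh6, Ryr2, Tnnt2, Mybpc3 and Pln), 17.1% to 33.0% for Tnni3 and 30.3% to 57.7% for Actc1. The Hk2 share thus lies within the range of the markers, and the part of carried-over RNA in it was not tested.

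Hk1, the housekeeping form, differed little between classes. It was at 71.5 ± 1.86 CPM in endothelial nuclei and at 68.7 ± 10.1 CPM in cardiomyocytes (SD, n = 5), and 3 of 5 libraries were higher in endothelial nuclei. Lymphatic, endocardial, pericyte and smooth muscle means were 66.2, 65.5, 64.2 and 55.5 CPM and their ranges overlapped. Macrophages (mean 42.5 CPM) and fibroblasts (mean 38.8 CPM) lay lowest and overlapped each other, and both lay below every cardiomyocyte and endothelial library. With TMM factors the cardiomyocyte mean became the highest at 101 CPM against 70.1 in endothelial nuclei.

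Both bifunctional enzymes were highest in cardiomyocytes among the 8 classes. Pfkfb2 was at 337, 248, 349, 280 and 326 CPM in cardiomyocytes of the 5 libraries, and at 9.02 to 37.7 CPM in the other 7 classes. Pfkfb1 was at 136, 94.5, 53.7, 106 and 152 CPM in cardiomyocytes of the same libraries and at 0 to 16.0 CPM in the other 7 classes. Outside these 8 classes it reached 224 CPM in Schwann-like nuclei of nTg Female 1 (21 UMIs, against 0 to 3 UMIs in each other library) and 264 to 558 CPM in the few adipocyte-like nuclei (28 UMIs in all). Among cardiomyocyte libraries Tg Female 2 was lowest and Tg male 2 highest for Pfkfb1 (mean 108 ± 38.2 CPM, SD, n = 5).

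Insr was detected in all 8 classes at 93.4 CPM or more in every library. Cardiomyocytes were highest at 501, 600.0, 442, 533 and 467 CPM in the library order above. Smooth muscle followed (288 to 433 CPM) and its highest library fell just short of the lowest cardiomyocyte library. Macrophages (234 to 349), endocardial nuclei (222 to 367), pericytes (179 to 272), fibroblasts (143 to 217) and endothelial nuclei (166 to 225 CPM) followed, each overlapping its neighbour in the order. Lymphatic endothelial nuclei (93.4 to 145 CPM) were lowest and lay below endothelial nuclei in all 5 libraries.

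Irs1, the main docking protein of the insulin receptor in muscle, split the classes into 2 sets. Smooth muscle (157 to 230 CPM), fibroblasts (113 to 200 CPM), cardiomyocytes (86.9 to 150.4 CPM) and pericytes (80.4 to 124 CPM) carried it. Macrophages, endocardial, endothelial and lymphatic nuclei had 0 to 15.8 CPM, and the lowest pericyte library was above all of them. The mean in pericytes was 14.0 times that in macrophages, the next class in the order. Cardiomyocytes stood at 98.2, 150.4, 87.9, 86.9 and 113 CPM in the 5 libraries, below fibroblasts of the same library in each, and with a range that overlapped that of fibroblasts and pericytes. In endothelial nuclei the mean was 191 CPM for Insr and 4.28 CPM for Irs1, and these levels are not compared with each other. Irs2, the related adaptor, had its highest mean in fibroblasts (53.1 ± 15.2 CPM, SD, n = 5), overlapping macrophages (mean 32.5 CPM). The endothelial mean of Irs2 was below both.

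Grb14 stood at 422, 583, 584, 314 and 364 CPM in cardiomyocytes of the 5 libraries. Smooth muscle (91.3 to 160.0 CPM), pericytes (44.7 to 59.1 CPM) and fibroblasts (13.7 to 22.2 CPM) followed without overlap between neighbours, and the other 4 classes held 0 to 43.2 CPM. Schwann-like nuclei, a class of 181 nuclei with 23 to 51 per library that was left out of the tests, matched cardiomyocytes for this gene: 491, 555, 477, 332 and 415 CPM in the same library order, from 232 UMIs in all. None of the other 8 genes reached its cardiomyocyte level in the pooled Schwann-like nuclei except Irs1 (159 CPM pooled).

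Of the other small classes, the 12 adipocyte-like nuclei pooled over libraries gave 40 UMIs of Insr, 35 of Irs1, 30 of Hk2, 28 of Pfkfb1, 1 of Slc2a4 and 0 of Slc2a1. With 1 to 4 nuclei per library these values come from too few nuclei to compare. The 105 mesothelial-like nuclei held Grb14 at 94.0 CPM (37 UMIs) and Insr at 198 CPM, and the 125 T and NK-like nuclei held Insr at 170.5 CPM and 1 UMI of Grb14.

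The share of nuclei with at least 1 UMI told the same order after each nucleus was thinned to 1000 UMIs. Cardiomyocytes are far deeper (median 5989 to 8154 UMIs per nucleus by library) than endothelial nuclei (1572 to 2205.5). For Hk2 the thinned share was 31.8% to 47.0% in cardiomyocytes and 1.11% to 1.72% in endothelial nuclei, against 85.0% to 94.9% and 2.31% to 3.10% unthinned. For Irs1 it was 7.91% to 11.99% against 0.0654% to 0.595%, and for Hk1 4.49% to 8.33% against 5.79% to 8.38%. Cardiomyocytes had the larger thinned share in all 5 libraries for 7 of the 9 genes. Hk1 and Slc2a1 were not among the 7, although unthinned all 9 genes had the larger share in the deeper cardiomyocytes. Endothelial nuclei are set beside them as a class with low levels of Hk2 and Irs1.

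Cardiomyocytes fell into 8 clusters of their own, called here by their leading genes. The 4 that had at least 20 nuclei in every library were led by Nppa (state 0, 775 nuclei), by Slit2, Rp1 and Etv1 (state 2, 1251 nuclei), by Ptgds with mitochondrial and haemoglobin genes (state 3, 1802 nuclei) and by Gm30624 (state 4, 1832 nuclei). Of the 9 genes Pfkfb1 had the widest gap between states 2 and 0: it was highest in state 2 and lowest in state 0 in all 5 libraries.

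In state 2 Pfkfb1 stood at 248.7, 179.8, 104, 212 and 318 CPM, and in state 0 at 44.6, 20.4, 12.2, 21.6 and 52.9 CPM. The mean log2 ratio of state 2 to state 0 was 2.92 ± 0.36 (SD, n = 5), a factor of 7.57. The ranges of the states did not overlap. A gap of 2-fold or more in all 5 libraries was met by 0.684% of 8622 genes in the direction of Pfkfb1 and by 0.835% in the opposite direction. Pfkfb1 was left out of the clustering, but the states are clusters of the same nuclei, so this is a description.

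**Figure D2:**
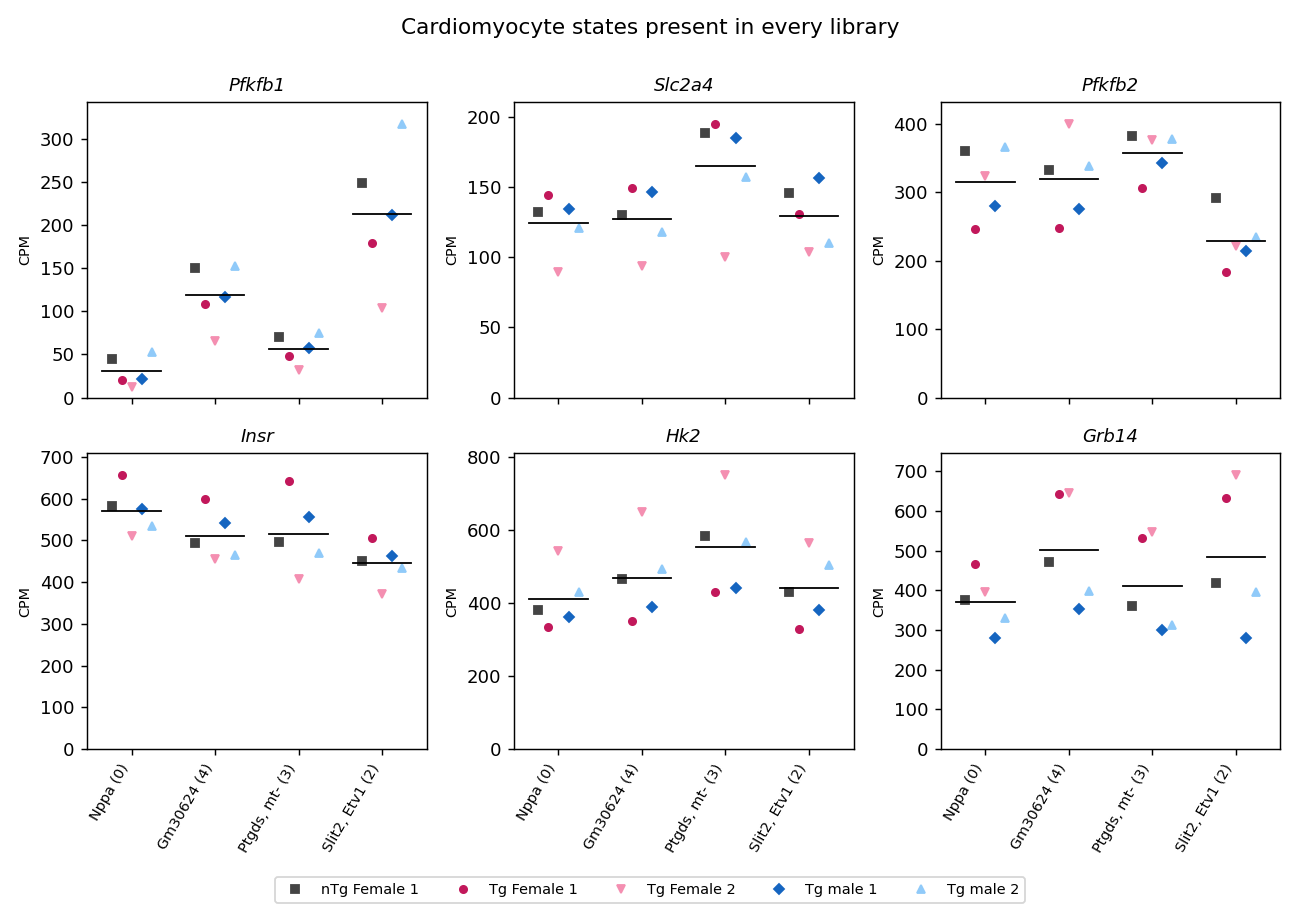
Level (y axis, CPM from 0) of 6 genes in the 4 cardiomyocyte states found in every library (x axis, leading genes with the state number), 1 point per library and a bar at the mean. Pfkfb1 is at 12.2 to 52.9 CPM in the Nppa state and at 104 to 318 CPM in the Slit2 and Etv1 state, while Pfkfb2 and Insr are lowest in the latter.

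Pfkfb2 took the opposite course to Pfkfb1 between these states. It was lowest in state 2 in all 5 libraries, at 183 to 291 CPM against 246 to 366 CPM in state 0 (log2 ratio -0.46 ± 0.13). Insr was also lowest in state 2 (372 to 506 CPM) and highest in state 0 (512 to 657 CPM) in all 5 libraries, with a log2 ratio of -0.36 ± 0.06. Slc2a1 was lower in state 2 than in state 0 in all 5 as well, at levels of 2.17 to 8.95 CPM. With Pfkfb1, 4 of the 9 genes lay on the same side in all 5 libraries. With the states clustered at a resolution of 0.3, which left 91 nuclei in the Slit2 and Etv1 state and 320 in the Nppa state, the log2 ratio was -0.89 for Pfkfb2, -0.74 for Insr and 3.56 for Pfkfb1, and Slc2a1 gave none (a library at 0 UMIs). Slc2a4 moved from 0.06 to -0.60 and Hk2 from 0.10 to -0.22. Over 8622 genes with at least 10 CPM in cardiomyocytes (which leaves Slc2a1 out), 15.2% were higher in state 2 in all 5 and 12.2% lower.

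Hk2 was highest in state 3 in all 5 libraries (429 to 750.4 CPM) and lowest in state 0 in 4 of them. The Hk2 ranges of state 4 (352 to 649 CPM), state 2 (329 to 564) and state 0 (333 to 544) overlapped that of state 3. Slc2a4 was highest in state 3 in 4 of 5 (100.1 to 195 CPM). The share of all genes with such an order was not counted. State 3 also had the highest mitochondrial share of UMIs of these 4 states (1.37% to 2.13% by library, against 0.701% to 1.25% in state 4) and the lowest median depth (4960.5 to 6743.5 UMIs). Both ranges overlapped those of state 2 (1.09% to 1.72% and 5466.5 to 7749 UMIs). The part of mitochondrial share and depth in the Hk2 and Slc2a4 values was not tested. Grb14 had state means of 370 to 502 CPM and was highest in state 4 in 4 libraries, and Irs1 had its lowest mean in state 3 and its highest, 119 CPM, in state 4. Hk1 had state means of 65.4 to 71.2 CPM, and no state was highest in more than 2 libraries.

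Values were also split by Ccna2, with no test. Cardiomyocyte nuclei with 10 or more Ccna2 UMIs numbered 106, 0, 113, 69 and 35 in the 5 libraries. Hk2 in them was at 488, 610.5, 395 and 469 CPM in the 4 libraries that had any, against 467, 645, 396 and 499 CPM in the other cardiomyocytes of the same libraries. Insr was at 498, 499.8, 544 and 494 CPM against 501, 431, 533 and 466. Pfkfb1 and Grb14 were lower in the nuclei with high Ccna2 in all 4 libraries. For Pfkfb1 the gap was small in nTg Female 1 (134 against 136 CPM) and largest in Tg male 1 (53.3 against 109.6 CPM). Its exact Poisson intervals overlapped in nTg Female 1 and Tg Female 2. Grb14 was at 410, 552, 301 and 316 CPM against 423, 589, 315 and 366, with overlapping intervals in each library. The share of all genes lower in all 4 libraries was not counted.

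Sex was compared within the Tg label, 2 female against 2 male libraries. No member passed the test in any class. In cardiomyocytes edgeR's quasi-likelihood test called 4 of 14955 genes (0.0267%) at a Benjamini-Hochberg adjusted p under 0.05, and 1056 had an unadjusted p under 0.05. DESeq2 called 97 genes there and none of the 9. Over the 8 classes the 9 genes made 72 pairs of gene and class, of which 50 passed the filter on low counts. Of those 50, 0 were called and 4 had an unadjusted p under 0.05, and DESeq2, which gave an adjusted p for 39 pairs, called 0. The share of all genes called was 0.139% in endothelial, 0.422% in fibroblast, 0.156% in pericyte, 0.14% in smooth muscle, 0.215% in endocardial, 0.302% in macrophage and 0.27% in lymphatic nuclei.

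Of the 9 genes in cardiomyocytes, Grb14 had the lowest edgeR adjusted p and Pfkfb1 the largest log2 difference. Both Tg female libraries (583 and 584 CPM) lay above both Tg male libraries (314 and 364 CPM), and nTg Female 1 lay between them at 422 CPM. The log2 difference, female minus male, was 0.75 (SE 0.19), with an edgeR adjusted p of 0.452. The order was the same in each of the 4 states above, which are parts of the same nuclei and add no separate evidence. Pfkfb1 was the only other member without overlap: 94.5 and 53.7 CPM in Tg females lay below 106 and 152 CPM in Tg males. Its order was also the same in each of these states, by little in state 0 (20.4 and 12.2 against 21.6 and 52.9 CPM). Its log2 difference was -0.83 (SE 0.31), with an edgeR adjusted p of 0.653. Of all genes tested in cardiomyocytes, 20.7% had both females above both males and 15.3% had both below, so 1 of 9 in each direction is not above that background.

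That 0 members were called depended on 1 library. Without Tg Female 1, the library labelled Tg with almost no Ccna2, edgeR called 3 member pairs: Grb14 in cardiomyocytes (log2 0.71, SE 0.15, adjusted p = 0.0480), Pfkfb1 in cardiomyocytes (log2 -1.34, SE 0.23, adjusted p = 0.0240) and Insr in fibroblasts (log2 -0.60, SE 0.14, adjusted p = 0.0181). That fit called 2.72% of cardiomyocyte genes and 8.6% of fibroblast genes, and 3.28% in endothelial, 4.66% in pericyte, 2.45% in macrophage, 2.14% in lymphatic, 1.72% in endocardial and 0.92% in smooth muscle nuclei. It leaves 1 female library, which is assumed to vary as the males do. Leaving out any other Tg library gave 0 member calls, and without nTg Female 1 the count of members highest in cardiomyocytes was again 6. Different clusters also held most cardiomyocytes of the Tg female and of the Tg male libraries. In the clustering of all nuclei, cluster 14 was led by Gm41505, with Nppb and Ankrd1 among its leading genes. It held 1331 and 718 of the nuclei of the 2 Tg female libraries and 52 and 25 of those of the Tg males. Cluster 4, led by Ptgds, held 21 and 6 against 704 and 768. The third female library, nTg Female 1, had the order of the Tg males, with 635 nuclei in cluster 4 and 81 in cluster 14.

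**Figure D3:**
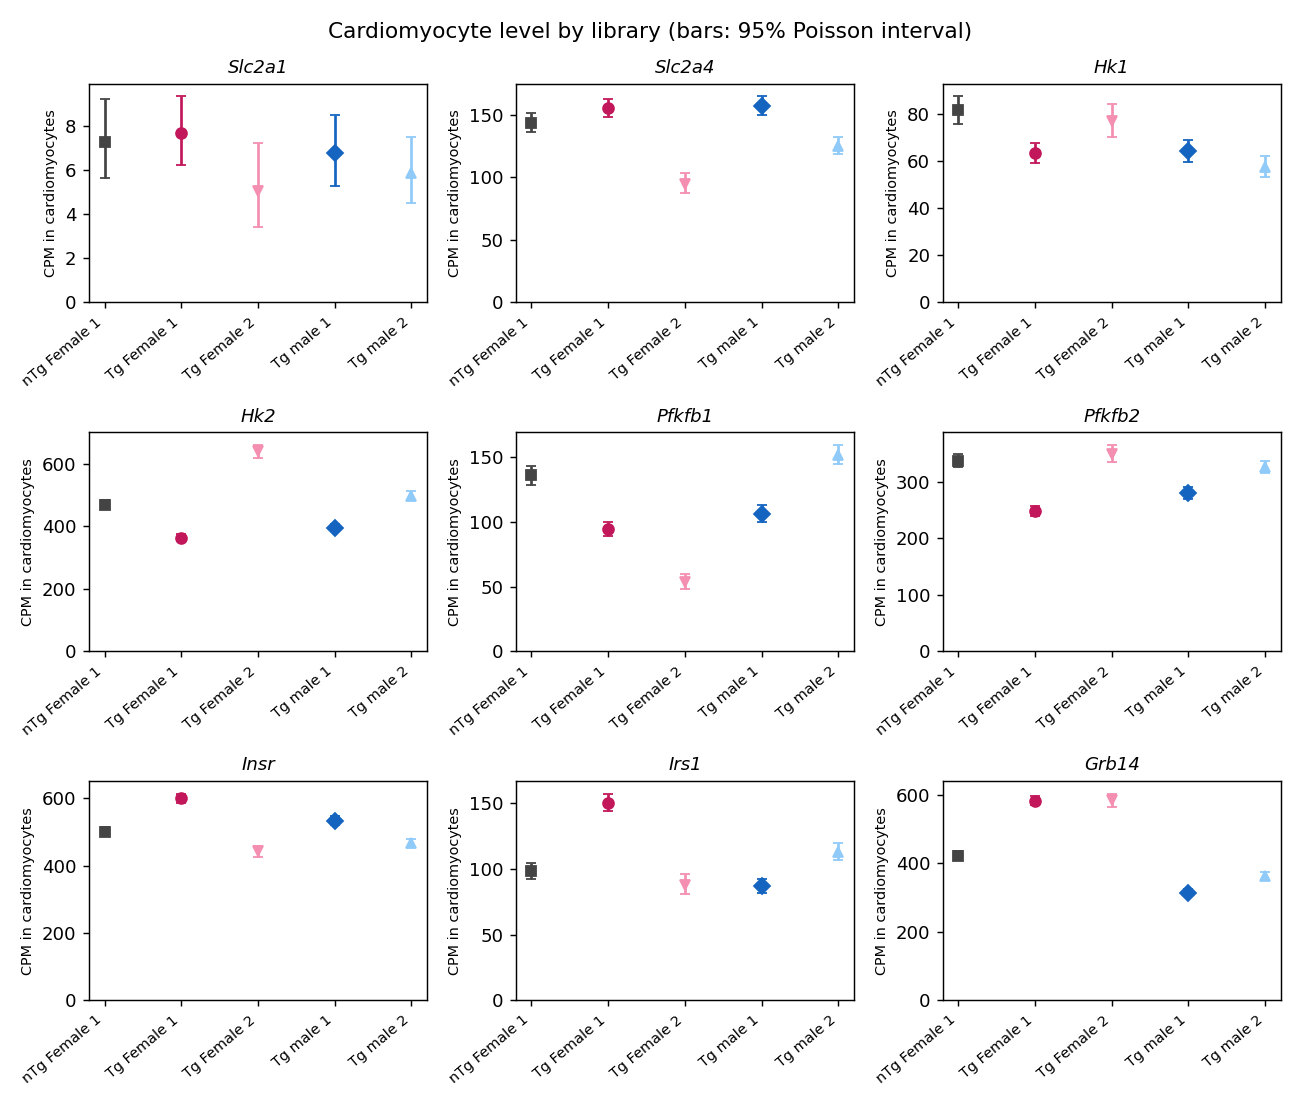
Cardiomyocyte level (y axis, CPM from 0) of each gene in the 5 libraries (x axis), with exact 95% Poisson intervals as bars, which cover counting error only. Grb14 is higher in both Tg female than in both Tg male libraries, and for Hk2, Slc2a4, Pfkfb2, Insr and Irs1 the 2 Tg female libraries lie on both sides of at least 1 male library.

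For the remaining 7 genes the cardiomyocyte difference was smaller than its error or near it: Hk1 0.16 (SE 0.17), Hk2 0.12 (SE 0.29), Pfkfb2 -0.06 (SE 0.22), Slc2a1 0.01 (SE 0.30), Slc2a4 -0.20 (SE 0.27), Insr 0.03 (SE 0.23) and Irs1 0.23 (SE 0.28), all log2 and female minus male. Tg Female 1 and Tg Female 2 differed from each other more than the sexes did for Hk2 (364 and 640.0 CPM), Slc2a4 (155 and 94.8), Irs1 (150.4 and 87.9) and Insr (600.0 and 442). With 2 libraries a side, differences of the size seen here are not resolved, and a missed threshold does not show that the sexes are alike.

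Outside cardiomyocytes, Slc2a4 in endothelial nuclei had the largest member difference: 9.43 and 11.9 CPM in Tg females against 2.76 and 5.24 CPM in Tg males, a log2 difference of 1.35 (SE 0.42) with an edgeR adjusted p of 0.363. In endothelial nuclei Slc2a4 was at 1.75% to 12.6% of the cardiomyocyte level. Hk2 in macrophages was at 125 and 162 CPM in Tg females and at 85.7 and 109.9 CPM in Tg males, a log2 difference of 0.54 (SE 0.22) with an edgeR adjusted p of 0.487. Of the 50 tested pairs, both females were above both males in 13 and below in 9. Among all genes the share above was 29.6% in fibroblast, 26.1% in endothelial, 21.9% in endocardial, 20.1% in macrophage, 18.7% in lymphatic, 17.0% in pericyte and 13.5% in smooth muscle nuclei. The share below was 12.5%, 14.7%, 14.7%, 18.7%, 16.4%, 18.1% and 19.8% in the same order.

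**Figure D4:**
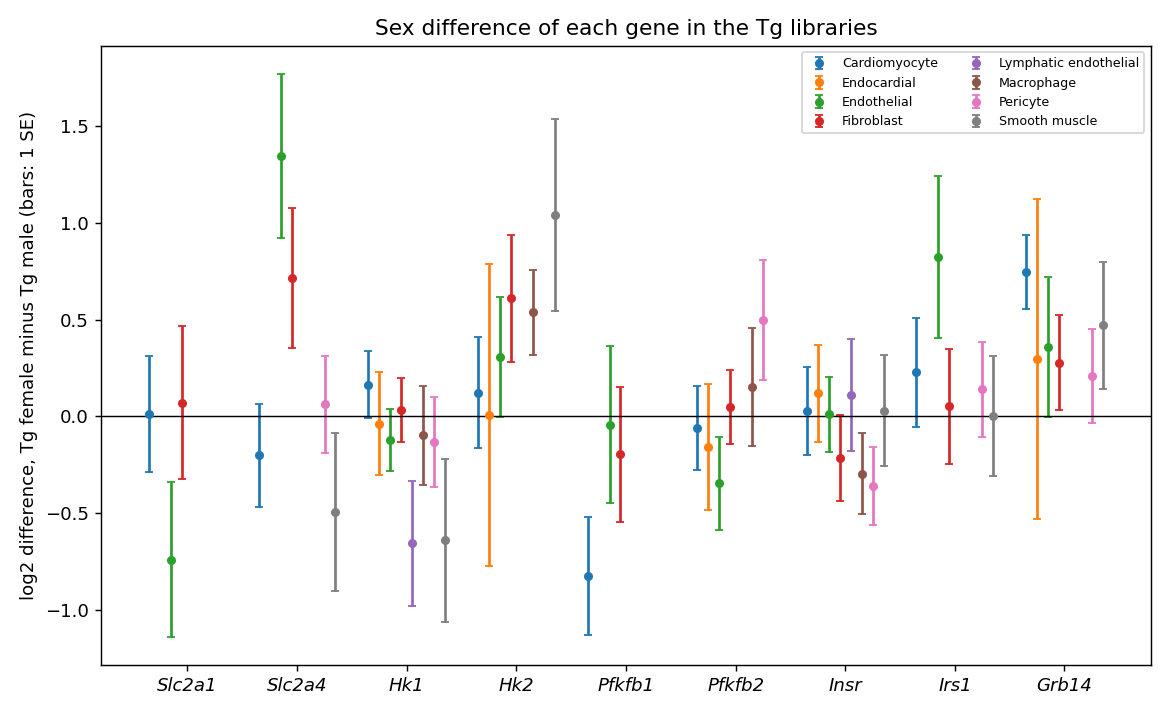
Log2 difference between Tg female and Tg male libraries (y axis, edgeR estimate, bars 1 SE) for each gene (x axis) in each class where it passed the filter (colours). Values spread around 0, Grb14 in cardiomyocytes is at 0.75, Pfkfb1 in cardiomyocytes at -0.83, and no point has an adjusted p under 0.05.

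The library labelled nTg Female 1 allows no test, being 1 library. In cardiomyocytes 8 of the 9 members lay inside the range of the 4 Tg libraries. Hk1 was the exception, at 81.5 CPM (exact 95% Poisson interval 75.8 to 87.5, counting error only) against 57.5 to 76.9 CPM in the Tg libraries, a log2 ratio to their mean of 0.32. None of the 8 members that reached 10 CPM was 2-fold or more from the Tg mean and outside the range, a criterion met by 0.918% of 8828 genes. Over all classes 4 of 48 such pairs met it: Grb14 in endocardial nuclei (14 UMIs, 18.8 CPM against a mean of 8.84), Grb14 (1 UMI) and Pfkfb1 (6 UMIs) in lymphatic nuclei and Pfkfb1 in smooth muscle (4 UMIs). The background share in those 3 classes was 5.22%, 11.2% and 14.5%, and the counts are small. In the classes where no member met it the share was 1.17% (endothelial), 0.645% (fibroblast), 2.8% (macrophage) and 3.97% (pericyte).

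The pathway lists add 82 genes: other glucose transporters, other hexokinase and phosphofructokinase genes, lower glycolysis and lactate, glycogen, the insulin signal, its brakes and the traffic of GLUT4 vesicles. Of the 76 that reached 10 CPM in some class, 26 had their highest mean in cardiomyocytes, 18 of them above the next class without overlap, followed by 13 in pericytes, 12 in macrophages, 8 in fibroblasts, 7 in endothelial, 5 in smooth muscle, 4 in lymphatic and 1 in endocardial nuclei. Of all 13856 genes 14.9% were highest in cardiomyocytes (8.13% above every library of every other class), 10.05% in pericytes, 21.7% in macrophages, 12.7% in fibroblasts, 12.1% in endothelial, 8.17% in smooth muscle, 12.6% in lymphatic and 7.73% in endocardial nuclei. The cardiomyocyte genes were mainly those of glycogen (10 of 12 genes) and lower glycolysis and lactate (8 of 14). Among these, Phka1, Pgk1, Pgam1, Pgam2, Eno1 and Pkm overlapped the next class, at 1.13 to 1.41 times its mean. All these counts use library totals, without the TMM factors that raised cardiomyocyte levels above. For the insulin signal only 2 of 19 were highest there (Pik3r1 and Foxo3, both overlapping the next class), with the others spread over 6 classes, and for the brakes 1 of 7.

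In cardiomyocytes Ppp1r3a, the muscle subunit that brings protein phosphatase 1 to glycogen, had 642 ± 80.9 CPM (SD, n = 5), 87.0 times the next class. Slc16a1, a lactate transporter (95.9 ± 17.1 CPM, 13.6 times), and Pfkm, muscle phosphofructokinase (141 ± 19.8 CPM, 5.17 times), followed. Macrophages held another set of the same pathway. Hk3, a hexokinase of myeloid cells, was at 51.7 ± 16.2 CPM in macrophages and 67.4 times the next class, Pfkfb3, the inducible bifunctional enzyme, at 198 ± 38.2 CPM (2.94 times), Snap23, a vesicle fusion protein, at 272 ± 36.1 CPM and Ptpn1, the phosphatase that acts on the insulin receptor, at 169 ± 11.03 CPM.

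Mural cells and fibroblasts differed again. Pericytes led for Trarg1, a protein of GLUT4 vesicles (44.8 ± 9.58 CPM, 7.61 times the next class), for Pik3ca, a catalytic subunit of phosphoinositide 3-kinase (354 ± 66.0 CPM) and for Gapdh (74.9 ± 17.9 CPM, overlapping cardiomyocytes). Smooth muscle led for Sort1 (264 ± 40.1 CPM, 4.15 times), a sorting receptor of GLUT4 vesicles, for Pfkp (120 ± 49.2 CPM, 2.59 times), platelet-type phosphofructokinase, for Igf1r (937 ± 175.0 CPM, 1.78 times), the receptor related to Insr, and for the transporter gene Slc2a10 (20.5 ± 7.61 CPM, overlapping fibroblasts). Fibroblasts led for Enpp1, an ectoenzyme that binds the insulin receptor (67.8 ± 26.5 CPM, 2.27 times), and endothelial nuclei for Pik3cb (156 ± 13.2 CPM, 2.22 times). Trib3, an Akt-binding pseudokinase, led in lymphatic endothelial nuclei (26.5 ± 5.51 CPM, 2.92 times). The other genes named by the same rule, Ldha, Grb10 and Gsk3b in endothelial, Irs2, Ugp2 and Akt2 in fibroblast, Shc1, Foxo1 and Ptprf in lymphatic and Slc2a13 in endocardial nuclei, overlapped the next class.

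**Figure D5:**
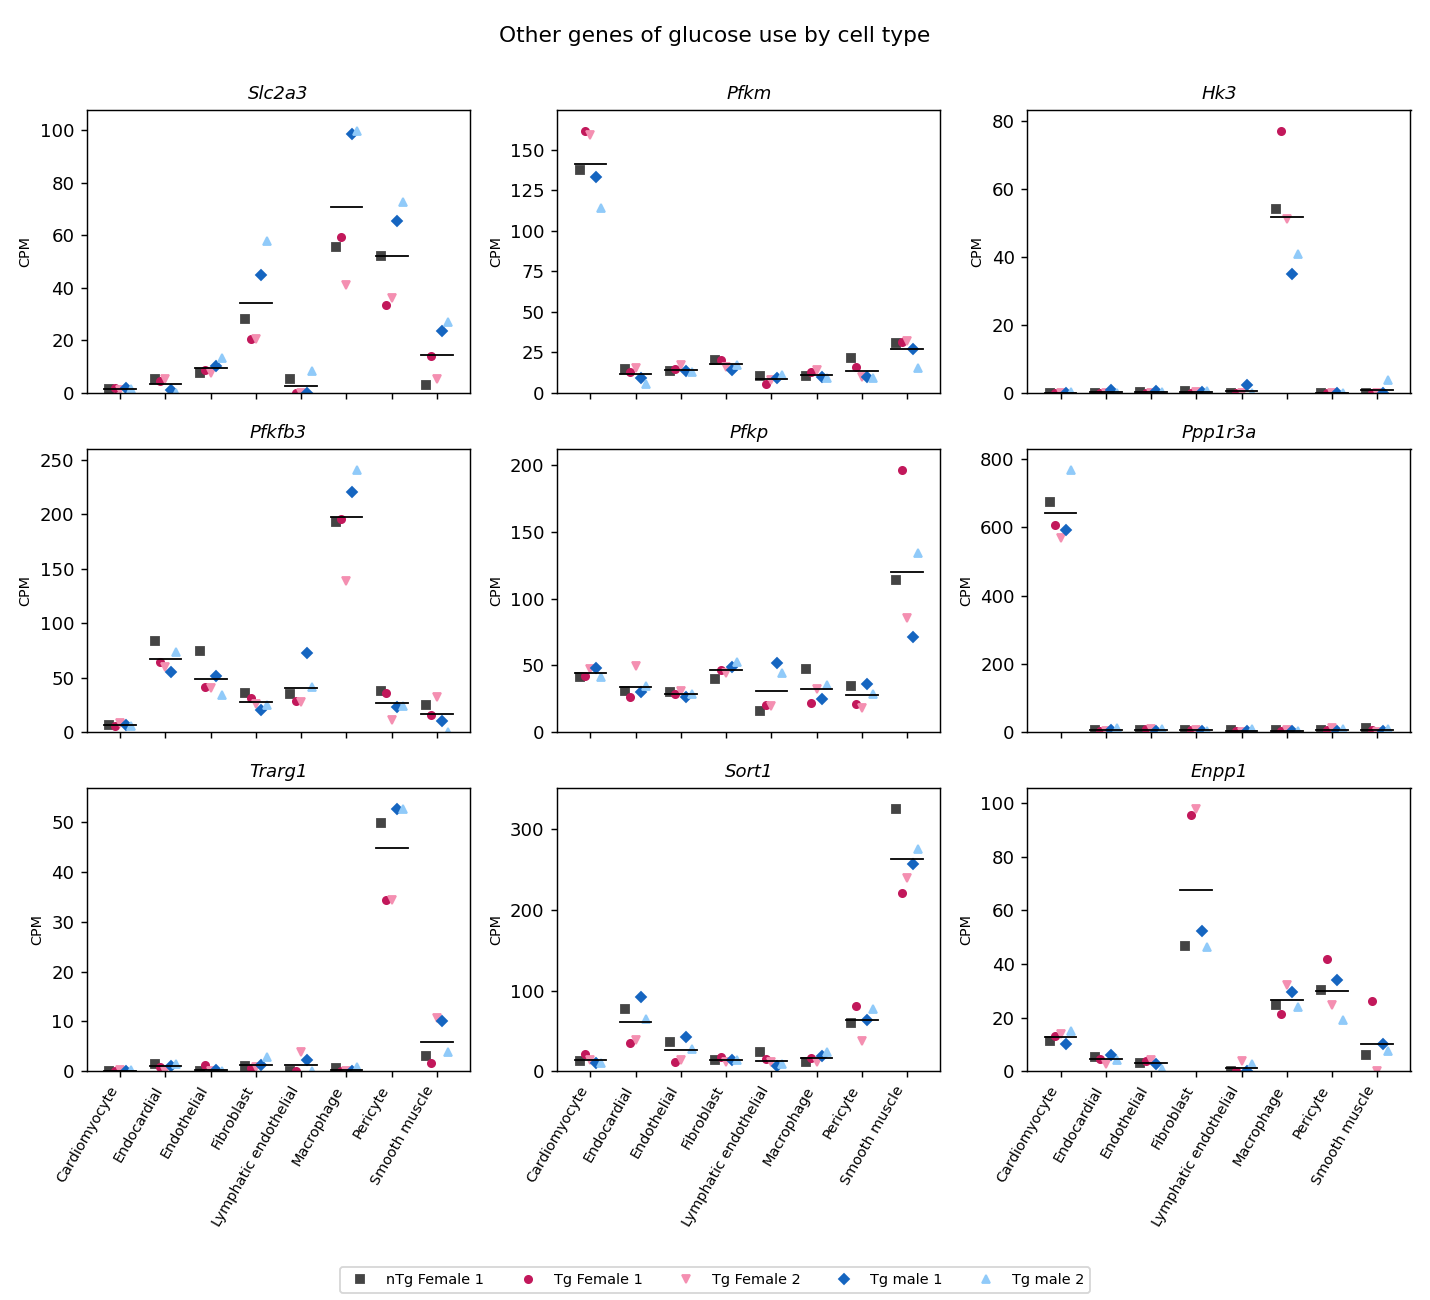
Level (y axis, CPM from 0) of 9 genes of the pathway lists in 8 cell classes (x axis), 1 point per library and a bar at the mean. Pfkm and Ppp1r3a stand high in cardiomyocytes, Hk3 in macrophages and Trarg1 in pericytes, and Slc2a3 is higher in both Tg male than in both Tg female libraries in fibroblasts, macrophages and pericytes.

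Of these genes 1 of the 74 tested in fibroblasts passed the sex test, beside 0.422% of all genes there, and 0 did in each of the other 7 classes. Slc2a3, which encodes the transporter GLUT3, was at 20.4 and 20.4 CPM in fibroblasts of the Tg female libraries (182 and 126 UMIs) and at 45.1 and 57.9 CPM in those of the Tg males (341 and 351 UMIs). The groups did not overlap, and nTg Female 1 stood at 28.3 CPM. Fibroblast clusters were also filled unevenly: cluster 0 held 1172 and 1658 nuclei of the Tg females and 577 and 432 of the Tg males, and cluster 2 held 450 and 151 against 613 and 622. The part of this in the difference was not tested. The log2 difference was -1.42 (SE 0.19), with an edgeR adjusted p of 0.0304. Over 8 alternatives it ran from -1.60 to -1.24, with adjusted p from 1.0e-08 to 0.0458. In macrophages Slc2a3 was at 59.2 and 41.1 CPM in Tg females and at 98.5 and 99.9 CPM in Tg males, and in pericytes at 33.5 and 36.1 against 65.5 and 72.7 CPM, and neither passed the test.

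In cardiomyocytes 0 of the 72 pathway genes tested were called by edgeR and 7 had an unadjusted p under 0.05. Their median log2 difference was -0.08, against 0.01 over all genes. Lowest in Tg females were Tbc1d1, a Rab regulator of GLUT4 vesicles (log2 -1.13, SE 0.25), Ptprf (-1.04, SE 0.38) and Pik3r1, the regulatory subunit of phosphoinositide 3-kinase (-0.76, SE 0.20). Highest were Sort1 (0.74, SE 0.26), the glycolytic enzyme gene Eno3 (0.54, SE 0.19) and Gapdh (0.44, SE 0.24). In all 6 the groups did not overlap, and edgeR adjusted p-values were 0.396 or more.

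Pathway genes were ranked by the ratio of nTg Female 1 cardiomyocytes to the Tg mean where either reached 10 CPM. The highest ratios were those of Pik3r1 (log2 0.49, with 832 CPM against a Tg range of 395 to 748), Igf1r (0.40) and Ugp2 (0.35). Among the lowest were Inppl1, a lipid phosphatase of the insulin signal (-0.46, with 31.4 CPM against 38.8 to 49.6), and Eno3 (-0.45). None of the 64 pathway genes considered was 2-fold apart and outside the Tg range.

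Among the genes with the most similar pattern over the 40 sums of 8 classes by 5 libraries were, by Pearson correlation of log2(CPM + 1) among 13856 genes, Casq2 (0.96), Hnrnpl (0.92) and Cacna1c (0.92) for Slc2a4, Gm50100 (0.90), Acsl1 (0.90) and Gm15523 (0.89) for Hk2, Mlip (0.90) and Slc47a1 (0.90) for Pfkfb1, and Gm12092, Gm31600 and 8430437L04Rik (0.95 each) for Pfkfb2. For Insr they included Adrb1 (0.83), Pygb (0.82) and Cux1 (0.82), for Irs1 Prrx1 (0.95) and Pakap (0.92), for Grb14 Miga2 (0.94), Cacna1c (0.91) and Rcan2 (0.90), and for Hk1 Gm36660 (0.76), Dysf (0.73) and Ctnna1 (0.72). Slc2a1 was below 10 CPM in every class and was not ranked. The 40 sums share 5 libraries, and sums of 1 class share their depth, so these values only describe the patterns. Between members, Pfkfb1 with Pfkfb2 (0.83) and Slc2a4 with Grb14 (0.82) were the most similar pairs, and Hk1 with Irs1 the least (-0.27).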

How the data were processed

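The authors deposited UMI counts per gene and barcode as 10x matrices, made with Cell Ranger 7.0.0 per the file headers, on mm10 per the submitters' processing notes. The counting of introns is not given in the sources used here. Of the nTg label, 3 matrices (the second female and both males) were copies of Tg matrices and were left out. Barcodes with 200 or more genes and under 5% mitochondrial UMIs were kept, and scrublet doublets (7.63% to 11.4% per library) were removed. In Tg Female 2 the automatic threshold marked 0%, so the median threshold of the other libraries was used. Clusters (scanpy 1.11.5, Leiden, resolution 1, cardiomyocytes again at 0.5) left out the members, the pathway lists, Ccna2 and sex-linked genes. A class needed 3 raised markers, and clusters that led the next type by under 0.5 log2 or were led by cycling genes stayed unnamed (762 nuclei), 2 rules set after the clusters were seen. Counts were summed per library and class and given as CPM. Sex was tested with edgeR 4.0.16 (TMM, filterByExpr, quasi-likelihood, Benjamini-Hochberg over all genes tested), with DESeq2 1.42.0 as alternative (R 4.3.3). On simulated counts for the cardiomyocyte comparison (14955 genes, 200 changed), 83.5% were recovered, and 98.3% of those changed 4-fold or more. Recovery at the size of the cardiomyocyte member differences (log2 -0.83 to 0.75) was not tested. Recovery with the spread seen between the Tg female libraries was not tested either. Named genes were the members in every class, the 3 most similar genes to each, and pathway genes that passed a sex test, had the 3 highest or lowest sex differences or nTg ratios in cardiomyocytes, or were among the 4 with the largest ratio of a class to the next. Some genes that these rules name are not reported here. The members and lists were chosen with earlier results of these data known.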

Additional observations from a re-analysis of the deposited data

Results flagged for a closer look

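For 3 genes, both Tg female libraries lay above both Tg male libraries in 1 class and below them in another. The difference between the classes was not tested, none of the single differences passed the edgeR test, and with 2 libraries a side such orders are common among all genes (from 12.5% to 29.6% of the genes tested, by class and direction). For Slc2a4, the log2 sex difference was 1.35 in endothelial nuclei, 0.72 in fibroblasts and 0.06 in pericytes against -0.49 in smooth muscle, so the classes differed by 1.84, 1.21 and 0.56. For Pfkfb2 it was -0.35 in endothelial nuclei against 0.15 in macrophages and 0.50 in pericytes, gaps of -0.50 and -0.84. For Hk1 it was 0.03 in fibroblasts, against -0.12 in endothelial nuclei (a gap of -0.15), -0.66 in lymphatic nuclei (0.69) and -0.64 in smooth muscle (0.67).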

How the results depend on the processing

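The count of cardiomyocyte genes called between the sexes was 97 with DESeq2, 12 without a filter, 212 with the replicate block, 60 to 422 with 1 library left out (422 without Tg Female 1) and 0 where each library had to hold 10 UMIs of a gene (edgeR, 938 with an unadjusted p under 0.05), against 4. Over the other 7 classes it was 477 with DESeq2, 1785 without a filter, 635 with the replicate block, 297 with 5 libraries and a genotype covariate and 367 to 2973 with 1 library left out, against 178. The cause was not tested. Member calls were 0 in every setting but 1 (3 without Tg Female 1). The replicate numbers share only a number: deviations of same-numbered libraries correlated at 0.057 in cardiomyocytes. The cardiomyocyte sex difference changed sign for Slc2a1 with DESeq2 (-0.00886), the replicate block (-0.0272) and doublets kept (-0.0161). With 1 library left out it ran from -0.38 to 0.27 for Slc2a1, -0.31 to 0.45 for Hk2, -0.30 to 0.14 for Pfkfb2, -0.64 to 0.12 for Slc2a4, -0.25 to 0.25 for Insr and -0.26 to 0.57 for Irs1. Genes apart in nTg Female 1 numbered 161 against the 2 Tg female libraries alone and 75 to 108 in the other settings, against 81. The counts by class, by state and by share of nuclei stayed within 1.5 times in every setting run. The 4 genes counted at a state resolution of 0.3 were not the same 4: Slc2a1 was not among them. Counts under about 10 CPM in the small classes limit what can be seen there.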

Other observations

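Clusters left without a name were not part of the values above. The cluster of 123 nuclei led by Cntn2 and Fgf12, closest to cardiomyocytes by its markers but with 2 of them raised, held Hk1 at 121 CPM pooled over libraries, against 64.8 to 70.0 CPM in the 3 cardiomyocyte clusters. Its Hk2 was at 193.5 CPM against 430.4 to 468 CPM, its Pfkfb1 at 19.5 against 58.0 to 206 CPM, its Pfkfb2 at 96.0 against 232 to 348 CPM and its Slc2a4 at 39.0 against 131 to 146 CPM. Insr (344 CPM) and Grb14 (271 CPM), pooled, were also below all 3. By library, Hk1 (53.2 to 185 CPM), Pfkfb1, Insr and Grb14 (77.1 to 465 CPM) overlapped some or all of the cardiomyocyte clusters, while Hk2, Pfkfb2 and Slc2a4 lay below all 3. Tg male 2 held only 7 nuclei of this cluster and nTg Female 1 only 9. A cluster of 363 nuclei (54, 166, 46, 60 and 37 in the 5 libraries) scored highest for cardiomyocyte markers, by too small a lead over the next type to be named. It held Hk2 at 563 CPM and Slc2a4 at 169 CPM, pooled, with library ranges (494 to 776 and 89.0 to 232 CPM) that overlap those of the cardiomyocyte cluster led by Ptgds (348 to 744 and 82.7 to 164 CPM), at 0.812 times the median depth of its libraries.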
